A study of Mus musculus with 6 samples.

Results

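A set of 10 genes that mark the stem cells and the outer sheath of the mouse hair follicle was described in whole back skin exposed to a bacterial protease with a mite extract. They are Cd34, Lgr5, Lgr6, Lhx2, Sox9, Nfatc1, Foxc1, Lrig1, Krt79 and Tcf7l1, chosen by name from knowledge of the follicle. They and the other gene lists below were chosen with earlier results of these data known. All 10 had a row in the deposited table of 17564 genes, and all 10 passed the filter on low values. The treated group held 3 samples of wild-type C57BL/6 skin that was shaved and depilated. It then received SspA, the V8 protease of Staphylococcus, (3 µg) on the skin surface together with 10 µg of HDM, an extract of house dust mites, and the same again 3 days later, with collection 7 days after the first dose. The untreated group held 3 samples of shaved and depilated wild-type C57BL/6 skin with neither agent, for which the labels give no collection day. Mice were 8 weeks old, and the labels do not tie the replicates to separate mice. Every p-value here therefore describes the scatter among these 6 samples, part or all of which may be technical.

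A hair follicle grows, regresses and rests in cycles, and new growth starts from stem cells in a niche called the bulge and from the hair germ beneath it. Cd34, Lhx2, Sox9, Nfatc1, Foxc1 and Tcf7l1 are known from mouse bulge cells, Lgr5 from the lower bulge, the germ and the outer sheath of growing follicles, and Lgr6, Lrig1 and Krt79 from the upper follicle. The outer root sheath is the epithelial sleeve that runs down from the bulge around the inner root sheath and the hair shaft.

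No member rose, and 2 of 10 fell, namely Foxc1 and Cd34 (limma, adjusted p under 0.05), where 9.26% of the 15534 genes tested rose and 7.23% fell, 16.5% in either direction. The share of members called is thus near that of all tested genes. The other 8 members did not pass the test, which does not show equal levels. The groups did not overlap for these 2 members, both lower in treated skin, against 15.6% of all tested genes with treated skin lower and 21.7% with it higher, 37.3% in either direction. The median log2 fold change of the members was -0.11 and that of all genes 0.03, and 6 members had a negative and 4 a positive value. Leaving out untreated replicate 1 or 3, or treated replicate 1 or 2, left 0 members called lower, and leaving out untreated replicate 2 left 1, Foxc1. Without treated replicate 3 the count was 2 again, with Lgr5 in place of Cd34. Whole skin holds many cell types, and in these data fewer cells of a type and less RNA per cell cannot be told apart.

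**Figure D1:**
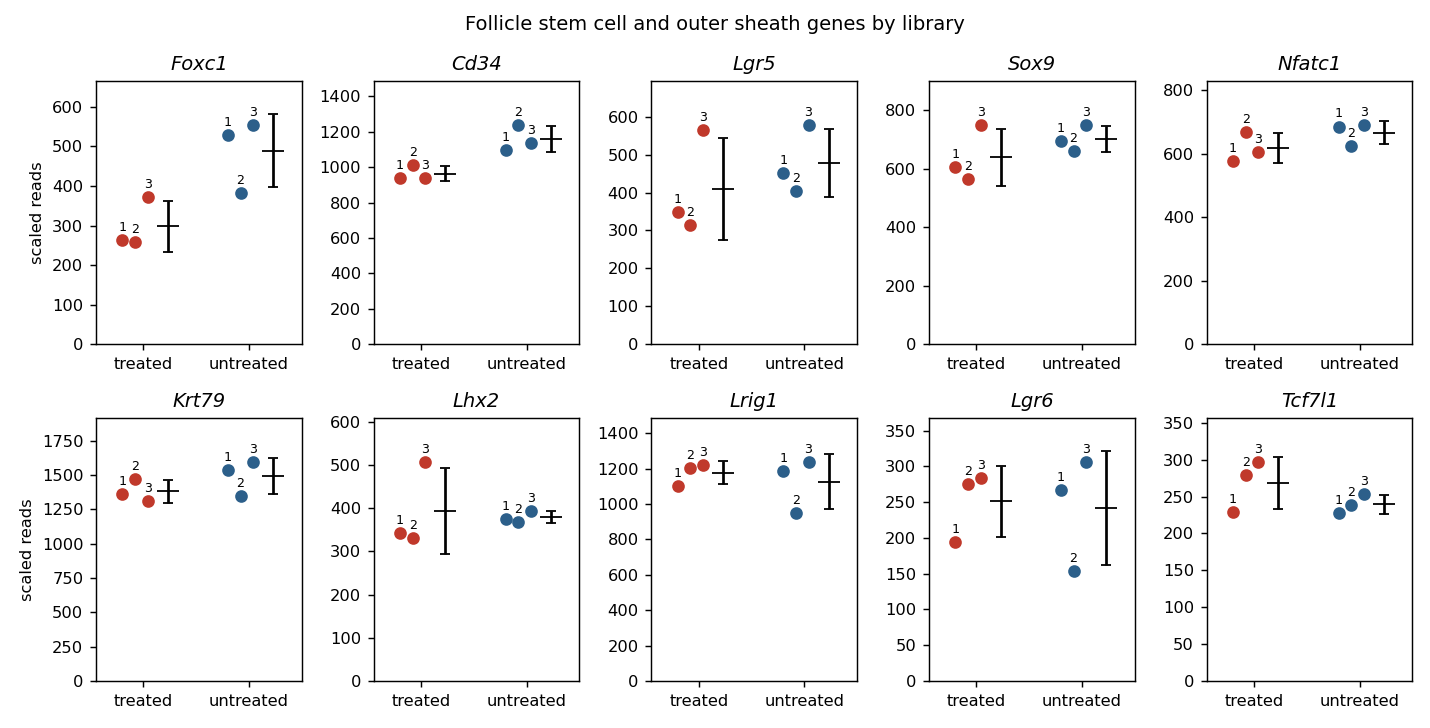
Scaled reads (y axis, from 0) of each of the 10 genes in treated (red) and untreated (blue) skin, 1 point per library with its replicate number, beside the mean and SD (n = 3). Only Foxc1 and Cd34 have groups that do not overlap, and the highest treated point of Lgr5, Lhx2, Sox9 and Foxc1 is replicate 3, as is their highest untreated point.

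The values are gene counts scaled by the authors so that libraries have near-equal totals, called scaled reads here. The reads behind them numbered 5606959 to 7545567 in treated and 4928245 to 5770072 in untreated libraries. Treated replicate 3 was the deepest and untreated replicate 2 the shallowest. Skin keratins such as Krt5 (1460 to 2067 scaled reads in treated, 1910 to 2132 in untreated skin) and Krt10 were abundant in every library. Krt15, a keratin of bulge and basal cells, and Krt75, a keratin of the companion layer, were present in all 6 libraries too, so the tissue label holds for the follicle.

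Foxc1, a forkhead factor known to hold bulge cells in their resting state, showed the largest difference among the members. It had 262, 258 and 373 scaled reads in treated replicates 1 to 3, against 529.6, 383 and 554 in untreated replicates 1 to 3. The groups did not overlap, although treated replicate 3 came close to untreated replicate 2. Foxc1 averaged 298 ± 65.2 scaled reads in treated skin and 489 ± 92.4 in untreated skin (SD, n = 3 each), a log2 fold change of -0.72 ± 0.18 SE with a 95% interval of -1.12 to -0.31 (limma, adjusted p = 0.0286). This is 0.608 times the untreated level. The fall held its direction in all 20 alternatives, at log2 -1.06 to -0.62 with adjusted p 0.00047 to 0.0966. As the groups did not overlap, leaving libraries out could not turn its sign. It was not called without treated replicate 1 (adjusted p = 0.0871) or 2 (0.096), without untreated replicate 1 (0.0966) or 3 (0.0814), or without a trend in the spread (0.0757). In the authors' deposited table Foxc1 has a log2 fold change of -0.76 with adjusted p = 0.000748.

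The Foxc1 row covers mm10 chromosome 13, 31806646 to 31810635, on the plus strand. Its promoter, from 250 bases before to 50 after the start (GRCm38.p6, chr13:31806396-31806695, plus strand, RefSeq), is shown with that of Cd34 because these are the members that fell, and capitals mark matches to CCAAT or GGGCGG on either strand.
Foxc1: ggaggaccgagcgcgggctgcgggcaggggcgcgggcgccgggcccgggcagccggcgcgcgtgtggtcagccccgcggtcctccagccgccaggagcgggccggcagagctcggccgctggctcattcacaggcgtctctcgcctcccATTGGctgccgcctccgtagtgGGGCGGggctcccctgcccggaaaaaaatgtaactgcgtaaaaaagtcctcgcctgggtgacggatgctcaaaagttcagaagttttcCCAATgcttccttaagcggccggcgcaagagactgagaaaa
This window had a GC content of 67.3% and 32 CpG pairs. It held 2 CCAAT matches and 1 GGGCGG match, which do not overlap. It held no match to TATAAA or to CTTTGA, 1 form of the core bound by TCF and LEF factors. Other forms of that core were not searched. Of 32851 promoters of the same length, 37.4% held CCAAT, 35.7% GGGCGG, 13.6% TATAAA and 16% CTTTGA on either strand. Among the 7 members with a promoter in the table, 2 held CCAAT, 4 GGGCGG and none TATAAA or CTTTGA. The match of a few letters is a description of the window and not a binding site.

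Cd34 encodes a surface sialomucin that is used to sort bulge stem cells from mouse skin, and it is also known from vessel walls, dermal fibroblasts and mast cells. It had 937, 1011 and 939 scaled reads in treated replicates 1 to 3, against 1099, 1239 and 1136 in untreated replicates 1 to 3. Every treated library was below every untreated one, and the spread within each group was small. The means were 962.5 ± 41.7 scaled reads in treated skin and 1158 ± 72.5 in untreated skin (SD, n = 3 each). The log2 fold change was -0.27 ± 0.08 SE with a 95% interval of -0.44 to -0.09 (limma, adjusted p = 0.0433), which is 0.832 times the untreated level. This call was close to the threshold: it was lost when any single library was left out (log2 -0.30 to -0.22, adjusted p 0.0729 to 0.121), and also with a block for replicate number (adjusted p = 0.0564). The authors' deposited table gives Cd34 a log2 fold change of -0.31 with adjusted p = 0.0258.

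Cd34 averaged 0.373 reads per base of transcript, so its values may be compressed. Before scaling it had 2875 reads in treated and 2963 in untreated libraries. With a loess trend of the values on reads per base taken out of every library, an alternative chosen after seeing the data, its log2 fold change was -0.15 (limma, adjusted p = 0.193). With reads estimated from filled positions, also chosen after seeing the data, it was -0.29 (limma, adjusted p = 0.0409). The part of compression in the Cd34 fall was not tested. The Cd34 row (mm10 chromosome 1, 194938821 to 194961292, plus strand) overlaps the antisense gene Gm16897. That neighbour had 83.1 ± 7.81 scaled reads in treated and 103 ± 9.4 in untreated skin (SD, n = 3 each). Whether the counting used strand is not given, so reads of the pair in the shared stretch are uncertain. The Cd34 promoter (GRCm38.p6, chr1:194938571-194938870, plus strand, RefSeq) had a GC content of 50% with 7 CpG pairs, against a median GC content of 52.7% over all promoters, and none of the 4 motifs.
Cd34: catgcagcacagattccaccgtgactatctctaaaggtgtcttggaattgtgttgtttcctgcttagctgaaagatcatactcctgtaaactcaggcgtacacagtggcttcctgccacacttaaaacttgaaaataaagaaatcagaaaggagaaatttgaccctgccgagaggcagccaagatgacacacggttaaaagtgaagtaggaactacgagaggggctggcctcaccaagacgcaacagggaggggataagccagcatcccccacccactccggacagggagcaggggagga

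Markers of other cells known to express Cd34 were set beside it. Of 14 endothelial markers tested, 4 rose, namely Vwf, Tie1, Sox18 and Emcn, and none fell, with a summed level of 7269 to 8522 scaled reads in treated and 5733 to 6537 in untreated skin. Vwf, the clotting factor carrier of vessel walls, had a log2 fold change of 0.70 (limma, adjusted p = 0.00671) and Tie1 one of 0.74 (adjusted p = 0.00768). The calls of Sox18 and Emcn were each lost in 5 of the 6 fits without a single library. Of 12 fibroblast markers 1 fell, Clec3b (log2 fold change -0.34, adjusted p = 0.0402), a call lost without any single library. The summed fibroblast level was 17063 to 21322 in treated and 15943 to 18734 in untreated skin. Of 9 mast cell markers tested 3 rose, Fcer1a, Kit and Tpsb2, and the summed mast cell level was 2194 to 2641 in treated and 1671 to 2460 in untreated skin. Without single libraries this count was 0 to 3, being 0 without treated replicate 2, and it was 1 with edgeR or voom. Mrgprb2, a receptor gene of mast cells, had 84.9 ± 32.8 scaled reads in treated and 160.2 ± 36.4 in untreated skin (SD, n = 3 each, limma, adjusted p = 0.0521). No mast cell marker was called lower in limma, but 1 was with DESeq2, with TMM scaling, with the replicate block and without treated replicate 3. No marker of these 3 lists was at 0 in any library. The part of these cells in the Cd34 value was not tested.

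Among the other bulge transcription factors, none passed the test over the 6 libraries. Sox9, an HMG-box factor needed for the outer sheath and bulge, had 605, 565 and 750.3 scaled reads in treated replicates 1 to 3, against 696, 660.0 and 749.9 in untreated replicates 1 to 3. The first and second treated replicates were below all untreated ones, while treated replicate 3 matched the highest. Its log2 fold change was -0.14 ± 0.11 SE (95% interval -0.39 to 0.11, limma, adjusted p = 0.432).

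Lhx2, a LIM-homeodomain factor that maintains bulge cells, had 343, 331 and 508 scaled reads in treated replicates 1 to 3, against 376, 368 and 394 in untreated replicates 1 to 3. Treated replicate 3 was the highest and the other 2 treated libraries were the lowest of the 6. The untreated libraries differed little (SD 13.5 scaled reads) and the treated ones more (SD 99.2). The log2 fold change of 0.03 ± 0.16 SE (95% interval -0.32 to 0.38, limma, adjusted p = 0.929) turned to -0.17 without treated replicate 3 (adjusted p = 0.265), and to -0.01 with TMM scaling (adjusted p = 0.985).

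Nfatc1, a factor linked to the quiescence of bulge cells, had 578, 669.8 and 607 scaled reads in treated replicates 1 to 3, against 686, 624 and 691 in untreated replicates 1 to 3. Its groups overlapped, with a log2 fold change of -0.11 ± 0.09 SE (95% interval -0.30 to 0.08, limma, adjusted p = 0.42). Tcf7l1, a TCF/LEF family factor that represses Wnt target genes in the bulge and outer sheath, had 229.6, 279 and 297 scaled reads in treated replicates 1 to 3, against 227, 238 and 253 in untreated replicates 1 to 3. It had the highest log2 fold change of the 10 genes, 0.16 ± 0.12 SE (95% interval -0.12 to 0.44, limma, adjusted p = 0.429), with overlapping groups. Its row overlaps that of Gm15401 on the other strand, which averaged 21.1 ± 5.92 scaled reads in treated and 17.4 ± 3.81 in untreated skin (SD, n = 3 each).

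Lgr5 encodes a receptor for R-spondins, secreted proteins that strengthen Wnt signalling. It had 349, 315 and 564 scaled reads in treated replicates 1 to 3, against 453, 403 and 578 in untreated replicates 1 to 3. Treated replicates 1 and 2 were below every untreated library, and treated replicate 3 lay beside the highest of them. The means were 409 ± 135 scaled reads in treated and 478 ± 90.5 in untreated skin (SD, n = 3 each), a log2 fold change of -0.25 ± 0.21 SE (95% interval -0.74 to 0.23, limma, adjusted p = 0.461). Without treated replicate 3 the log2 fold change was -0.51 (adjusted p = 0.048). In the 4 libraries of like depth, which leave out treated replicate 3 and untreated replicate 2, it was -0.62 (adjusted p = 0.0137). Those are its highest treated and lowest untreated library, so a larger fall was bound to follow. Without treated replicate 2 it was -0.09 (adjusted p = 0.843).

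Lgr6, the closest relative of Lgr5 among the members and a marker of the isthmus above the bulge, had 194, 276 and 283 scaled reads in treated replicates 1 to 3, against 267, 153 and 307 in untreated replicates 1 to 3. Untreated replicate 2 was the lowest of all 6 libraries, and the groups overlapped. Its log2 fold change was 0.09 ± 0.25 SE (95% interval -0.48 to 0.67, limma, adjusted p = 0.845), the widest interval of the 10 genes. It turned to -0.21 without untreated replicate 2 (adjusted p = 0.539) and to -0.01 without treated replicate 3 (adjusted p = 0.993).

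Lrig1 encodes a membrane protein that restrains the epidermal growth factor receptor and marks upper follicle stem cells. It had 1102, 1207 and 1223 scaled reads in treated replicates 1 to 3, against 1189, 949 and 1241 in untreated replicates 1 to 3. The groups overlapped, with a log2 fold change of 0.07 ± 0.11 SE (95% interval -0.17 to 0.31, limma, adjusted p = 0.695), which turned to -0.05 without untreated replicate 2 (adjusted p = 0.785). The end of its row overlaps that of Slc25a26, which lies on the other strand and averaged 166 ± 26.9 scaled reads in treated and 209.8 ± 20.6 in untreated skin (SD, n = 3 each). Krt79, a keratin of cells that line the canal of the upper follicle, had 1363, 1474 and 1309.9 scaled reads in treated replicates 1 to 3, against 1537, 1344 and 1599 in untreated replicates 1 to 3. Its log2 fold change was -0.11 ± 0.09 SE (95% interval -0.31 to 0.09, limma, adjusted p = 0.429), with overlapping groups. Krt79 had the most reads per base of the members (0.637), and with the trend in reads per base removed its log2 fold change was 0.09 (adjusted p = 0.647).

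**Figure D2:**
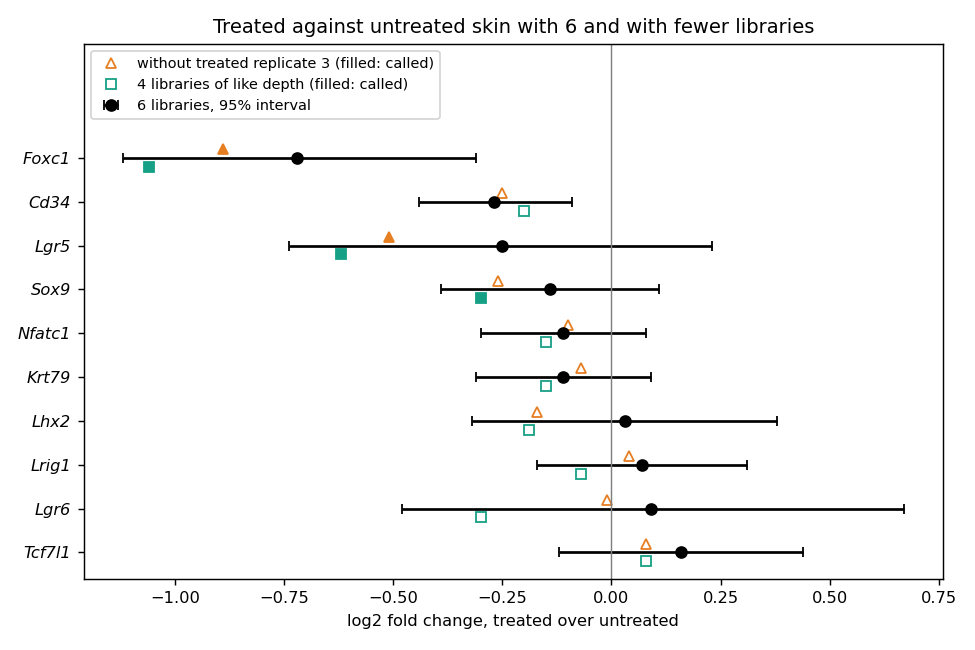
Log2 fold change of treated over untreated skin (x axis) for each of the 10 genes, from the 6 libraries with 95% intervals (black), without treated replicate 3 (triangles) and in the 4 libraries of like depth (squares), filled where limma called the gene. Foxc1 is below 0 in each, while Lgr5 moves to -0.51 and -0.62 and Sox9 to -0.26 and -0.30 with fewer libraries. Both smaller sets leave out treated replicate 3, the highest treated library for Foxc1, Lgr5 and Sox9.

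The treated libraries were not alike for several of these genes. Foxc1, Lgr5, Lhx2 and Sox9 all had the order treated replicate 3 above 1 above 2, an order that 17.6% of all tested genes shared. The same 4 genes also had the order replicate 3 above 1 above 2 in untreated skin, so this order was not particular to treated skin. Of the 10 members, 7 were highest in treated replicate 3 among treated libraries, against 40.4% of all tested genes, and 8 were lowest in untreated replicate 2 among untreated libraries, against 40.5%. Further, 9 were highest in untreated replicate 3 among untreated libraries, against 37.5%, and 0 were highest in treated replicate 1 among treated libraries, against 38.1%. In the 4 libraries of like depth 3 members were called lower, Foxc1 at log2 -1.06 (limma, adjusted p = 0.00047), Lgr5 and Sox9 (-0.30, adjusted p = 0.0409). Cd34 was not called there (-0.20, adjusted p = 0.103). This fit has 2 libraries a group and leaves out treated replicate 3 and untreated replicate 2. For Foxc1, Lgr5 and Sox9 these were the highest treated and the lowest untreated library, so a larger fall was bound to follow.

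The same order of treated libraries was seen in the inner root sheath and matrix markers, whose summed level was 2914, 1446 and 5715 scaled reads in treated replicates 1 to 3. In untreated replicates 1 to 3 their sums were 841, 789 and 816, which is not the untreated order of those 4 genes. The macrophage and neutrophil markers had another order, with sums of 6756, 7216 and 4610 in treated replicates 1 to 3 and 2919 to 3981 in untreated skin. Relative to the untreated mean, Lgr5 stood at log2 -0.45, -0.60 and 0.24 in treated replicates 1 to 3 and Foxc1 at -0.90, -0.92 and -0.39. Treated replicate 3 was also the deepest library. Untreated replicate 2, the lowest untreated library for each of those 4 genes, was the shallowest (4928245 reads). Untreated replicate 3 (5580401 reads) was less deep than untreated replicate 1 (5770072). The part of depth or of inner root sheath content in these orders was not tested.

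**Figure D3:**
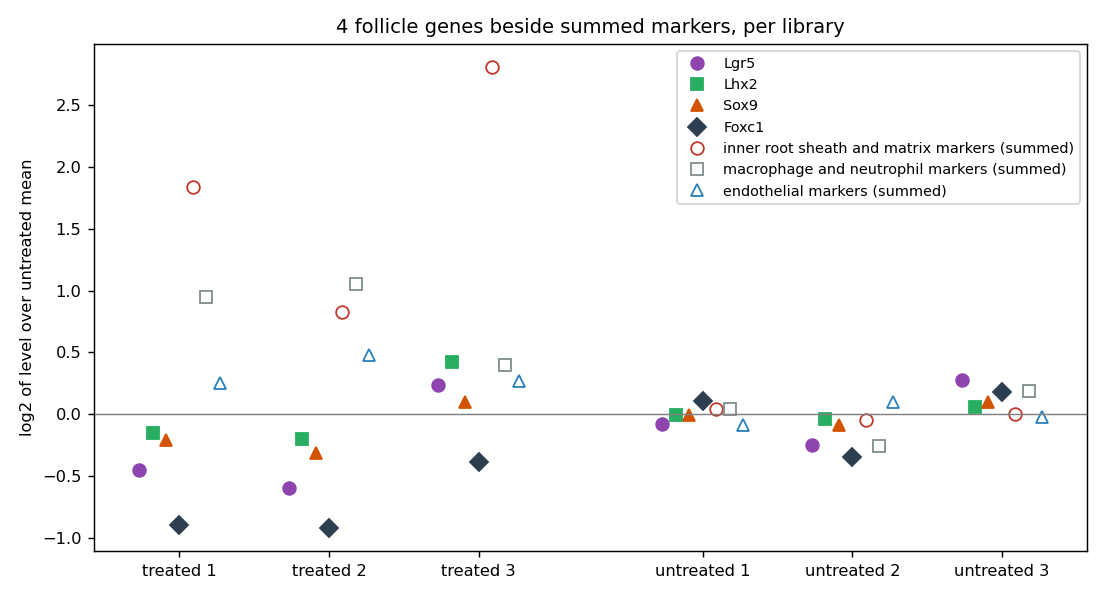
Log2 of the level in each library over the untreated mean (y axis) for 4 of the genes (filled) and for the summed levels of 3 marker lists (open). Inner root sheath markers stand at 1.84, 0.83 and 2.81 in treated replicates 1 to 3, and Lgr5, Lhx2, Sox9 and Foxc1 are also highest in treated replicate 3 among treated libraries. Among untreated libraries these genes are highest in replicate 3 too.

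Per kilobase of transcript, the order of the members was led by Krt79 in each group, at 663 ± 40.0 scaled reads per kilobase in treated and 716 ± 63.6 in untreated skin (SD, n = 3 each). Cd34 followed at 369 ± 16 in treated and 443 ± 27.8 in untreated skin, and Lrig1 at 238 ± 13.2 in treated and 228 ± 31.4 in untreated skin. The ranges of these 3 genes did not overlap each other in either group. Lhx2 (172 ± 43.3 in treated, 166 ± 5.9 in untreated skin) and Sox9 (155 ± 23.5 in treated, 169 ± 10.9 in untreated skin) did not differ beyond their spread. Nfatc1 came next with 127 ± 9.63 scaled reads per kilobase in treated and 137 ± 7.62 in untreated skin. Foxc1 was at rank 9 in treated skin (74.7 ± 16.3) and rank 7 in untreated skin (123 ± 23.2). Tcf7l1, Lgr5, Foxc1 and Lgr6 overlapped their neighbours among these 4 genes in each group, and Lgr6 was the lowest at 69.7 ± 13.6 in treated and 67.2 ± 22.1 in untreated skin. Krt79 stood at 9.51 times the level of Lgr6 per kilobase in treated skin. Krt79 averaged 0.637 reads per base and Lgr6 0.0645, so this ratio and the order may be compressed at the upper end. The size of such an effect was not tested.

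Other genes of the bulge and hair germ were divided. Of 22 tested, 3 rose and 4 fell (median log2 fold change -0.03). Fgf18, a growth factor made by resting bulge cells, had 29.4, 31.6 and 41.2 scaled reads in treated replicates 1 to 3, against 94.5, 153 and 98.8 in untreated replicates 1 to 3. Its groups were well apart, with a log2 fold change of -1.71 ± 0.25 SE (limma, adjusted p = 0.00456). Krt15 fell by 0.45 on the log2 scale (adjusted p = 0.00862), with 934.5 ± 38.2 scaled reads in treated and 1278 ± 98.2 in untreated skin (SD, n = 3 each). Cdh3, the P-cadherin of the hair germ, rose by 0.50 (adjusted p = 0.00753), with 721 ± 18.4 scaled reads in treated and 509.9 ± 45.2 in untreated skin. The calls of Fgf18, Krt15 and Cdh3 held without any single library. Ltbp2 (-0.85) and Nfix (-0.27) also fell, and Runx1 (0.96) and Sfrp1 (0.30) rose, and each of these 4 calls was lost in 1 to 5 of the 6 fits without a single library.

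In the isthmus, junctional zone and infundibulum list 2 of 6 tested genes fell, Cst6 (log2 fold change -0.43, limma, adjusted p = 0.0154) and Atp6v1c2 (-0.37, adjusted p = 0.0252), and none rose. The count was 0 without treated replicate 2 and without untreated replicate 1 or 3. Gata6, a factor of the junctional zone and sebaceous duct, did not pass, with 119 ± 52.6 scaled reads in treated and 177 ± 69.4 in untreated skin (SD, n = 3 each). Of 6 keratins of the outer sheath and companion layer 1 fell and 1 rose. Krt75 had 435, 276 and 512.5 scaled reads in treated replicates 1 to 3, against 703, 958 and 735 in untreated replicates 1 to 3, and fell by 1.00 on the log2 scale (adjusted p = 0.0164, 0.056 without untreated replicate 2). Krt6b rose (0.66, adjusted p = 0.0444), a call lost in 5 of the 6 fits without a single library, as well as with edgeR, voom or TMM scaling, while without treated replicate 3 the list held 3 rises. Reads of Krt6a, Krt6b and Krt16 may be shared with near-identical keratins.

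The partners of the LGR receptors and of Tcf7l1 gave few calls. None of 6 tested genes among R-spondins, Lgr4 and the E3 ligases Rnf43 and Znrf3 passed in limma, with log2 fold changes of 0.06 to 0.77. Rspo3 was the highest, with 62.4 ± 20.2 scaled reads in treated and 35.7 ± 9.43 in untreated skin (SD, n = 3 each, adjusted p = 0.105). Rspo2 was below the filter. Of 12 other TCF/LEF factors, their partners and related genes tested, 1 rose, the co-repressor gene Tle1 (0.40, adjusted p = 0.0306), a call lost in 5 of the 6 fits without a single library. Lef1, the TCF/LEF factor of the growing matrix, had 121, 67.5 and 234 scaled reads in treated replicates 1 to 3, against 42.9, 74.6 and 72.7 in untreated replicates 1 to 3, and did not pass (1.00, adjusted p = 0.133).

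**Figure D4:**
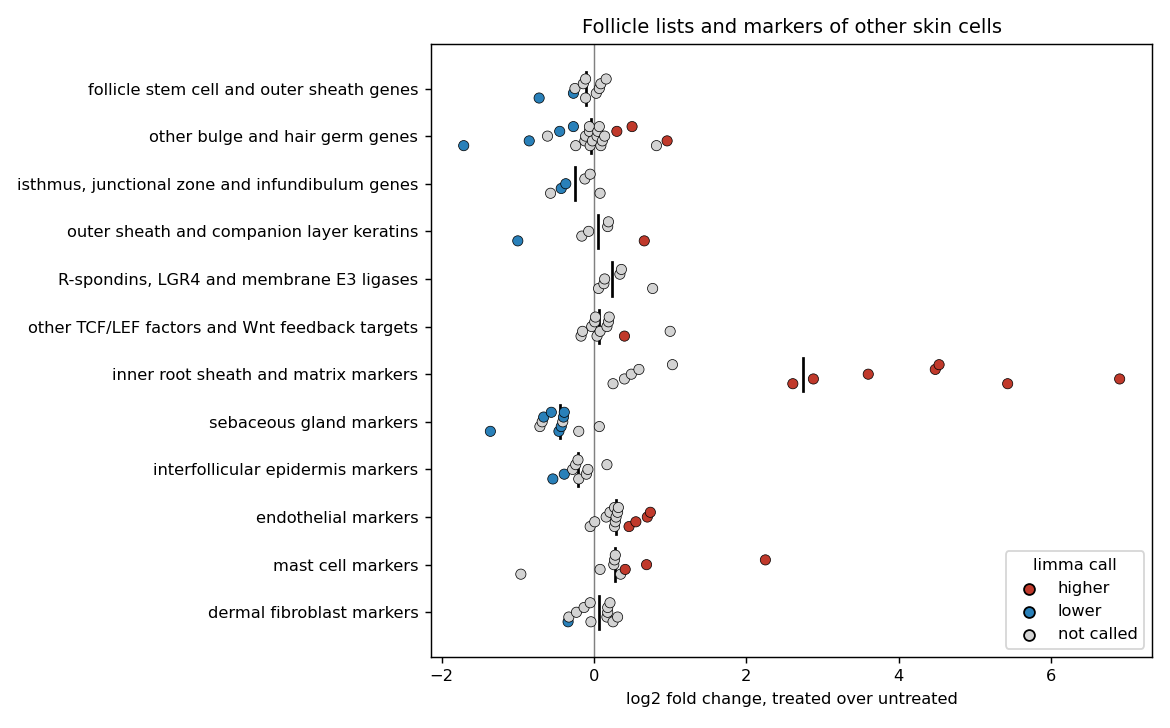
Log2 fold change of treated over untreated skin (x axis) for each tested gene of 12 lists (rows), coloured by limma call, with the list median as a black bar. The 10 follicle stem cell and outer sheath genes lie between -0.72 and 0.16 around a median of -0.11. In the inner root sheath and matrix list (median 2.74) 7 of 12 genes are called higher, while Msx2, Hoxc13, Dlx3, Foxn1 and Crym are not called.

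The tested keratins of the inner root sheath stood apart from the members. As the labels give no collection day for untreated skin, treatment and time since depilation cannot be told apart in these values. Of 12 inner root sheath and matrix markers tested 7 rose and none fell (median 2.74, limma), and voom called 2 of them. The 7 were Krt25, Krt27, Krt28, Krt71, Krt73, Tchh and Padi3, at log2 2.61 to 6.90. Msx2 (1.03), Hoxc13 (0.59), Dlx3 (0.49), Foxn1 (0.40) and Crym (0.25) were not called in limma. Krt71, an inner root sheath keratin, had 346, 113 and 811 scaled reads in treated replicates 1 to 3, against 13.2, 15.4 and 11.4 in untreated replicates 1 to 3. Of 12 sebaceous gland markers 7 fell and none rose (median -0.44), with the lowest p for Soat1 (log2 fold change -0.43, adjusted p = 0.0111), with a summed level of 6829 to 7816 in treated and 10114 to 10279 in untreated skin. That count was 2 without untreated replicate 1 or treated replicate 1 or 2, and 3 without untreated replicate 3. Of 9 interfollicular epidermis markers tested 2 fell, Sbsn (-0.39, adjusted p = 0.0112) and Lor (-0.54, adjusted p = 0.0113), and none rose, with 4 falls without treated replicate 3 and none with the trend in reads per base removed.

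Profiles most like those of the called members were sought among 12949 genes with a mean of at least 50 scaled reads, by the root mean square difference of log2 profiles over the 6 libraries, each centred on its own mean. For Foxc1 the nearest were Gna14 at 0.057, Bmp4 at 0.058 and Klhl29 at 0.077 log2 units. Bmp4, a bone morphogenetic protein, had 113, 112 and 156 scaled reads in treated replicates 1 to 3, against 208, 169.8 and 229 in untreated replicates 1 to 3, with a log2 fold change of -0.67 (limma, adjusted p = 0.0341). For Cd34 the nearest were Fbxw5 at 0.028, Npepl1 at 0.031 and Adsl at 0.032 log2 units, none of which passed the test (adjusted p = 0.058, 0.0825 and 0.0858). These profiles include the difference between the groups, so genes with a like fold change come out as near.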

How the data were processed

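Whole-skin RNA of 3 treated and 3 untreated samples was made into stranded mRNA libraries and sequenced (the labels' protocols). The submitters' processing notes name STAR, DESeq2 and bcl2fastq 2.20.0.422, and build mm10. No source used here gives the read counter, its use of strand, or whether reads at 1 position were counted once. The authors deposited a scaled signal per gene, with the authors' log2 fold changes and p-values and transcript lengths. In each library 100.0% of values were whole multiples of 1 read within 0.1 reads, which gave the reads used for filtering and count tests. The plan foresaw scaled values. Genes passing filterByExpr of edgeR 4.0.16 (minimum count 10, total 15) entered a limma fit (3.58.1, R 4.3.3) of log2(value + 1) on group alone, with p-values adjusted by Benjamini-Hochberg over 15534 genes. This scale understates changes of low genes. The members and the 15 other lists were chosen with earlier results of these data known. Named genes were all members, the called or lowest-p genes of each list, and the nearest profiles. Alternatives included edgeR, DESeq2 1.42.0 and voom on recovered reads. The fit was tested on simulated data. Promoters are those of RefSeq in GRCm38.p6, matched by symbol for 7 of 10 members. Libraries of a group differed by more than sampling noise (chi-square per degree of freedom 2.4 to 8.43).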

Additional observations from a re-analysis of the deposited data

How the results depend on the processing

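No member was called higher in limma or in any of the 20 alternatives, edgeR, DESeq2 and voom among them, and 0 had a positive fold change with an unadjusted p under 0.05. The 2 members called lower were 1 with a replicate block, 1 with the trend in reads per base removed, 0 without a trend in the spread and 0 to 2 without single libraries. Over all genes, 1439 were called higher and 1123 lower. These were 922 and 640 without a trend in the spread, and 610 to 1420 higher and 529 to 1344 lower without single libraries. With the replicate block 1348 were higher and 1096 lower. Over all tested genes, same-numbered libraries did not deviate together (correlations -0.09, -0.05 and 0.05). With 3 libraries a group this does not settle whether the numbers pair the samples. With the replicate block the SE of Foxc1 was 0.124 against 0.179 (limma, adjusted p = 0.00823) and that of Lgr5 0.111 against 0.215. The SE was also smaller for Lgr6, Lhx2, Lrig1 and Sox9, and larger for Cd34, Krt79, Nfatc1 and Tcf7l1. Calls gained were those of Lgr5 and Sox9 in the 4 libraries of like depth, and of Lgr5 without treated replicate 3. Both settings leave out treated replicate 3, the highest treated library for each of these genes. Signs turned only for members that were not called: Lgr6 was -0.30 in the 4 libraries of like depth, -0.041 with the trend in reads per base removed and -0.21 to 0.29 without single libraries. Lhx2 was -0.0057 with TMM scaling, -0.19 in the 4 libraries and -0.17 to 0.14 without single libraries. Lrig1 was -0.074 in the 4 libraries and -0.046 to 0.15 without single libraries, and Krt79 was 0.094 with the trend in reads per base removed. The cause was not tested. Removing that trend and estimating reads from filled positions were chosen after seeing the data. The ratio of the highest to the lowest member in treated skin was 5.5 without division by length. Of 600 values for the 30 counts of other lists, 498 stayed within 1.5 times and 102 moved. Many of the 498 are counts of 0 that stayed 0, so this share says little about the counts above 0. The count of rises among outer sheath and companion layer keratins, 1 over the 6 libraries, was 0 to 3 without single libraries. The smallest called member change was -0.27, and smaller changes may go undetected with 3 libraries a group. Larger ones may too where the spread is wide. The 95% interval of Lgr5 was -0.74 to 0.23 and that of Lgr6 -0.48 to 0.67, and Lef1 was not called at 1.00.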

Other observations

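Other skin compartments also differed between the groups. Of 12 cell cycle markers 6 rose and none fell (median log2 fold change 0.48, limma), led by Bub1 with 361 ± 76 scaled reads in treated and 174 ± 31 in untreated skin (SD, n = 3 each, log2 fold change 1.04, adjusted p = 0.00744). The cell cycle count was 2 to 7 without single libraries. Of 8 adipocyte markers 4 fell and none rose (median -0.41), led by Lep, the leptin gene, with 189 ± 51.1 scaled reads in treated and 695 ± 122 in untreated skin (-1.89, adjusted p = 0.00156). The adipocyte count was 2 to 4 without single libraries. Of 10 macrophage and neutrophil markers 5 rose and none fell (median 0.79, 5 to 7 without single libraries). Of 9 skeletal muscle markers 2 fell, Myh1 and Pvalb, and none rose (median -0.36, 0 to 2 without single libraries, and 7 with DESeq2). The skeletal muscle count was 1 with the trend in reads per base removed and 6 with reads estimated from filled positions. Before scaling Myh1 had 9980 reads in treated and 11366 in untreated libraries, and Pvalb had 1535 in treated and 1841 in untreated libraries. The part of compression in the skeletal muscle falls was not tested.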
